A study of Mus musculus with 112 samples.

Results

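The genes described here encode the nuclear subunits of the last steps of oxidative phosphorylation: complex III, complex IV and ATP synthase (complex V). Members were all genes with a probe set of a single symbol whose symbol is Cyc1 or begins with Uqcr, Cox4, Cox5, Cox6, Cox7, Cox8 or Atp5, and each gene was represented by its brightest probe set. Cox7a1 and Cox8b, the isoforms that mark muscle and brown fat, were left out by the rule. This gave 41 genes of the 19938 measured, with 9 in complex III, 15 in complex IV and 17 in ATP synthase. Cox7c is not among the 41, because its 3 probe sets also carried the symbol Gm12338.

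Epididymal white adipose tissue (WAT) was collected from 112 male mice of 7 strains, and RNA of each mouse was hybridized to an Affymetrix Mouse Gene 1.0 ST array. The strains were the F1 hybrid of C57BL/6 and C3H mice, B6C3F1/J, and the inbred strains C57BL/6J (labelled C57BL6/J), BALB/cJ (labelled Balbc/J), 129S1/SvImJ, DBA/2J, CBA/J and C3H/HeJ. In each strain 8 mice ate the control diet and 8 were calorie restricted (CR). All mice were housed singly, received 84 kcal a week before the diets began at 8 weeks of age, and tissue was taken at 22 weeks of age after an overnight fast. The amounts fed were not the same in every strain: CR was deepened partway through the study in 129S1/SvImJ and C57BL/6J, and both BALB/cJ groups received larger allotments, so that the CR allotment of BALB/cJ was the control allotment of the other strains. A difference between BALB/cJ and the other strains therefore cannot be told apart from a difference in feeding. The same holds for 129S1/SvImJ and C57BL/6J against the strains whose CR was not deepened.

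Complex III takes electrons from ubiquinol and hands them to cytochrome c, complex IV passes them from cytochrome c to oxygen, and both move protons out of the mitochondrial matrix. ATP synthase lets the protons back in and uses that flow to make ATP: its F1 head carries the catalytic sites, its ring of c subunits turns in the membrane, and a peripheral stalk holds the head still. Most subunits come from nuclear genes, and complex IV has several subunits with alternative isoforms that are typical of muscle, lung or testis.

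Signals are on a log2 scale, so a difference of 1 is a doubling. The median signal of an array was 6.72 at the lowest and 6.86 at the highest, and pairs of arrays correlated at 0.894 to 0.997. Of 16 epididymis markers (Lcn5, Lcn8, Adam7 and others) the mean signal was 4.91 to 6.0 in 104 arrays and 7.03 to 10.92 in the other 8, of which 6 were CR and 2 control. These were replicates 2 and 3 of the C57BL/6J CR mice, 5 and 6 of the CBA/J CR mice, and, in DBA/2J, 3 and 4 of the control mice and 1 and 6 of the CR mice. The members were bright: 37 of the 41 lay above the median gene signal of 7.17, and the 4 below it were Cox6a2, Cox6b2, Cox7b2 and Cox8c, isoforms known from muscle or testis. Levels of different genes come from different probes, so no order of level is read among the members, and in bulk tissue fewer cells of a type and less RNA per cell cannot be told apart.

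Averaged over the 7 strains, CR raised 34 of the 41 genes and lowered 0 at an adjusted p under 0.05 in limma. Over all genes, 21.9% were called higher and 22.0% lower, and among the genes above the median signal 35.3% were called higher. The median change of the 41 was 0.26 on the log2 scale, against 0.008 for all genes. The 7 genes that did not pass were the tissue isoforms Cox4i2, Cox6a2, Cox6b2, Cox7b2 and Cox8c, together with Cox7a2l and Atp5g1. Without the 8 arrays high in epididymis markers the count was again 34.

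**Figure D1:**
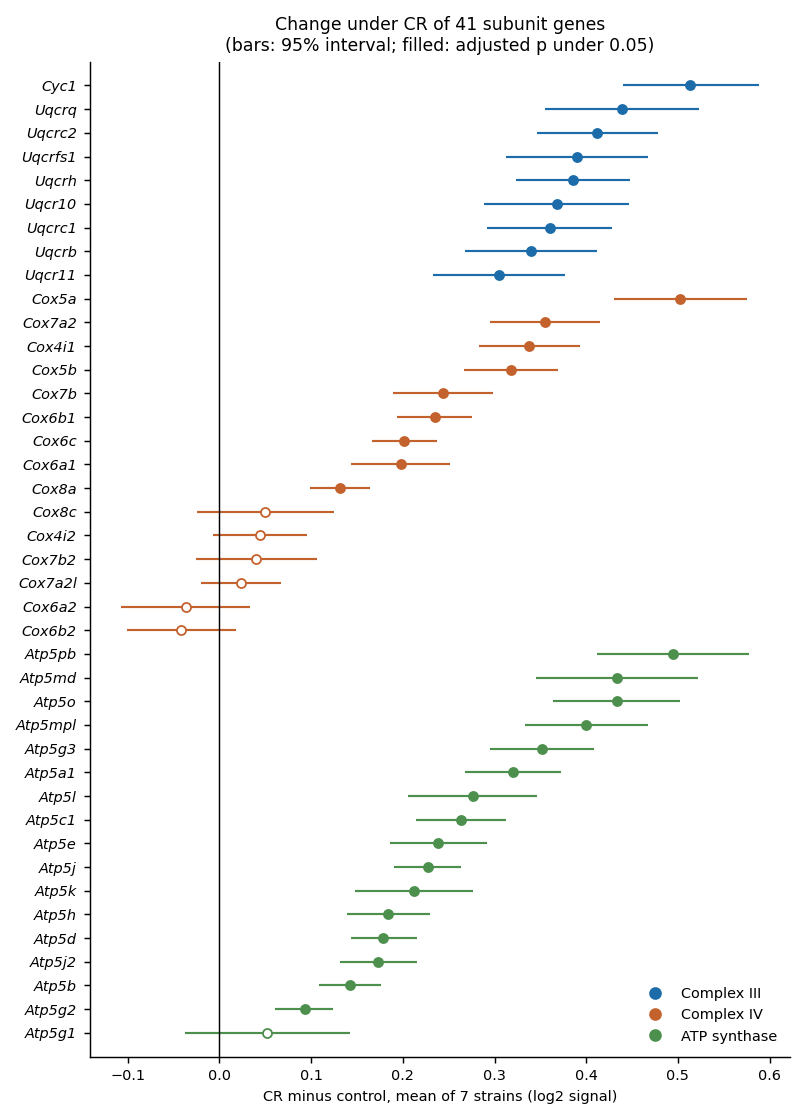
CR minus control for each of the 41 genes, averaged over 7 strains, on the log2 scale (horizontal axis), with genes grouped and coloured by complex. Bars are 95% intervals and filled points passed an adjusted p under 0.05. The 9 complex III genes lie between 0.30 and 0.51, and the 7 open points cluster near 0.

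The largest changes were in Cyc1 and Cox5a. Cyc1, which encodes the heme subunit cytochrome c1 of complex III, rose by 0.51 ± 0.04 (SE; 1.43-fold, adjusted p 6.6e-23 in limma). Cox5a, a matrix-side subunit of complex IV, rose by 0.50 ± 0.04 (1.42-fold). Atp5pb, subunit b of the peripheral stalk of ATP synthase, rose by 0.49 ± 0.04 (1.41-fold) by its brightest probe set. Its other probe set gave 0.38, so its rank depends on the probe set. Every strain showed a positive difference for these 3 genes.

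In complex III all 9 genes rose, with a median of 0.39 and a range from 0.30 for Uqcr11 to 0.51 for Cyc1. The core proteins Uqcrc1 and Uqcrc2, which flank the complex on its matrix side, rose by 0.36 and 0.41. Uqcrfs1, the Rieske iron-sulfur subunit that passes electrons to cytochrome c1, rose by 0.39. The 5 small subunits all rose: Uqcrq by 0.44, Uqcrh, the hinge protein, by 0.39, Uqcr10 by 0.37, Uqcrb by 0.34 and Uqcr11 by 0.30. Each of the 9 was positive in all 7 strains.

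For Cyc1 in B6C3F1/J the lowest, median and highest signals were 10.35, 10.49 and 10.63 in control mice and 11.08, 11.25 and 11.48 in CR mice. Every CR mouse lay above every control mouse, and the difference was 0.77 ± 0.06 (adjusted p 3.7e-08). In BALB/cJ the control mice ran from 10.68 through a median of 10.96 to 11.68, and the CR mice from 10.84 through 11.38 to 11.74. The groups overlapped, with only 2 CR mice above every control mouse, and the difference of 0.33 ± 0.14 did not pass (adjusted p 0.65). The highest control mouse, replicate 3, stood apart, and without it the BALB/cJ difference was 0.43 ± 0.12 (adjusted p 0.079).

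In 129S1/SvImJ the core genes separated the groups completely. Uqcrc1 ran from 10.41 through 10.47 to 10.65 in control mice and from 10.71 through 10.94 to 11.1 in CR mice, a difference of 0.43 ± 0.06 (adjusted p 1.4e-05). Uqcrc2 ran from 11.32 through 11.49 to 11.695 in control mice and from 11.699 through 11.97 to 12.11 in CR mice, a difference of 0.43 ± 0.07 (adjusted p 9e-05). Uqcrh did the same in B6C3F1/J, where control mice spanned 10.11 to 10.33 with a median of 10.17 and CR mice 10.61 to 11.12 with a median of 10.87 (difference 0.68 ± 0.07, adjusted p 4.1e-07). In DBA/2J the Uqcrh difference was 0.15 ± 0.08 and did not pass (adjusted p 0.4).

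In complex IV 9 of the 15 genes rose, with a median of 0.20 over all 15. Of the 10 left after setting aside the tissue isoforms Cox4i2, Cox6a2, Cox6b2, Cox7b2 and Cox8c, 9 rose and the median was 0.24, while 0 of those 5 isoforms passed across strains (unadjusted p from 0.09 for Cox4i2 to 0.3 for Cox6a2). Of the 5, all but Cox4i2 lay below the median gene signal, so their values say little about the change of the transcripts. After Cox5a came Cox7a2 at 0.36, Cox4i1 at 0.34 and Cox5b at 0.32, followed by Cox7b at 0.24, Cox6b1 at 0.23, Cox6c and Cox6a1 at 0.20 and Cox8a at 0.13. Among the 9 that rose the change was smaller in brighter genes (Pearson r -0.825), and the part of signal level in this order was not tested.

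Cox5a in B6C3F1/J spanned 9.11 to 9.26 in control mice, with a median of 9.16, while CR mice began at 9.63, with a median of 9.85. The groups did not overlap and differed by 0.65 ± 0.06 (adjusted p 1.3e-07). In DBA/2J Cox5a spanned 9.17 to 9.98 in control mice (median 9.45) and 9.62 to 10.03 in CR mice (median 9.93), and 7 control mice lay below every CR mouse. That difference of 0.42 ± 0.1 was among the 3 member calls in DBA/2J (adjusted p 0.045), and without control replicate 2, the highest, it was 0.49 ± 0.07 (adjusted p 0.0067).

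Cox5b, which carries a zinc site on the matrix face of complex IV, spanned 11.46 to 11.87 in the C3H/HeJ control mice (median 11.64) and 11.81 to 12.11 in the CR mice (median 11.99). In C3H/HeJ 7 of the 8 CR mice were above every control mouse, and the difference was 0.32 ± 0.06 (adjusted p 0.0015). Cox4i1, the common form of the regulatory subunit that binds ATP, spanned 9.89 to 10.25 in C57BL/6J control mice (median 10.11) and 9.89 to 10.67 in CR mice (median 10.53). Again 7 CR mice lay above every control mouse, and the exception was replicate 2, an array high in epididymis markers. The difference was 0.36 ± 0.1 with it (adjusted p 0.017) and 0.44 ± 0.07 without it (adjusted p 0.00012).

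In ATP synthase 16 of 17 genes rose, with a median of 0.24 and a range from 0.05 to 0.49. The 5 genes of the F1 head all rose: Atp5a1, the alpha subunit, by 0.32, Atp5c1, the gamma shaft, by 0.26, Atp5e by 0.24, Atp5d by 0.18 and Atp5b, the catalytic beta subunit, by 0.14. The 4 genes of the peripheral stalk all rose, with Atp5pb at 0.49 and Atp5o, the cap that joins stalk and head, at 0.43, ahead of Atp5j at 0.23 and Atp5h at 0.18. The 5 membrane and dimer genes all rose, with Atp5md at 0.43 and Atp5mpl at 0.40 ahead of Atp5l at 0.28, Atp5k at 0.21 and Atp5j2 at 0.17. The alpha and beta subunits, which alternate in the head, had intervals that did not meet, at 0.27 to 0.37 for Atp5a1 and 0.11 to 0.18 for Atp5b. Atp5b was the brighter, at a mean signal of 12.89 against 11.45. Among the 34 genes called higher the change was smaller in brighter genes (Pearson r -0.42). By complex r was -0.33 in ATP synthase, -0.825 in complex IV and -0.04 in complex III. The part of signal level in differences between genes was not tested.

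Atp5o in B6C3F1/J spanned 9.67 to 9.89 in control mice (median 9.74) and 10.18 to 10.66 in CR mice (median 10.48), a difference of 0.71 ± 0.06 with no overlap (adjusted p 1.1e-07). Atp5j, coupling factor 6, spanned 11.19 to 11.37 in 129S1/SvImJ control mice (median 11.22) and 11.37 to 11.6 in CR mice (median 11.51). Its groups also did not overlap, although the difference was smaller at 0.25 ± 0.04 (adjusted p 0.00035). Atp5a1 in CBA/J spanned 11.22 to 11.43 in control mice (median 11.36) and 11.32 to 11.82 in CR mice (median 11.74), and 7 CR mice were above every control mouse. The lowest CR mouse was replicate 5, high in epididymis markers, and the difference was 0.34 ± 0.07 with it (adjusted p 0.001) and 0.39 ± 0.05 without it.

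The 3 genes of the c ring, Atp5g1, Atp5g2 and Atp5g3, encode the same mature c subunit behind different targeting peptides, so that CR could be compared over genes with 1 product. Atp5g3 rose by 0.35 ± 0.03, Atp5g2 by 0.09 ± 0.02, and Atp5g1 did not pass at 0.05 ± 0.05 (adjusted p 0.38). The 3 promoters are shown because the product is shared and the upstream sequences are not. Each line gives the 250 bases before the transcript start in RefSeq's mouse build GRCm38.p6, read 5′ to 3′ on the minus strand, from chr11:96075632-96075881 for Atp5g1, chr15:102671048-102671297 for Atp5g2 and chr2:73911327-73911576 for Atp5g3. Capitals mark matches, on either strand, to the letters CCAAT (known for the factor NF-Y), AAGGTCA (the half-site named for estrogen-related receptors) or GCATGCG (a core named for nuclear respiratory factor 1).
Atp5g1: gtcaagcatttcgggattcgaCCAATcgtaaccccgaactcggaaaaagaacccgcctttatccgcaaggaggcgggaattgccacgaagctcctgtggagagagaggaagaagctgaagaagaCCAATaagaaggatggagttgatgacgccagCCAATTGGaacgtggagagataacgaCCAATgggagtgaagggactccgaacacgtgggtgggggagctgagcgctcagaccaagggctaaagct
Atp5g2: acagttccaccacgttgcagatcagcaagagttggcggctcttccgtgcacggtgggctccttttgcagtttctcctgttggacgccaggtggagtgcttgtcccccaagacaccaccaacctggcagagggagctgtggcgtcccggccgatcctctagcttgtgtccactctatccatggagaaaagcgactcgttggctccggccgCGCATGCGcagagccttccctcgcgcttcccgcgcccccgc
Atp5g3: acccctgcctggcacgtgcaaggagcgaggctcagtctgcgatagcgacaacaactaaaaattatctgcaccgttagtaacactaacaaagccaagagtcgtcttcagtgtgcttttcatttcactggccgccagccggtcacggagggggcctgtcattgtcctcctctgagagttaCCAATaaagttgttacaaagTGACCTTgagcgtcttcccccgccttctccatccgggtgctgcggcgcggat
Atp5g1 held 5 CCAAT matches, at 229, 126, 95, 92 and 69 bases before the start, of which those at 95 and 92 overlap by sharing bases. Atp5g2 held none and carried the nuclear respiratory factor 1 core on both strands, at 41 and 40 bases before the start, in matches that overlap. Atp5g3 held a CCAAT match at 72 bases and the estrogen-related receptor letters, on the other strand, at 52 bases. The promoter table matched 30 of the 41 genes. CCAAT was in 17 of these 30 promoters (56.7%) and in 34.5% of all 27025 promoters, CCGGAAG (named for ETS factors) in 7 (23.3%) against 7.05%, GCATGCG in 4 (13.3%, Atp5g2, Atp5k, Atp5l and Cox6a1) against 3.07%, AAGGTCA in 2 (6.67%, Atp5g3 and Atp5l) against 4.05%, TATAAA in 3 against 13.0% and ATGGCGG (named for YY1) in 0 against 2.19%. These are matches of letters, and binding was not measured.

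**Figure D2:**
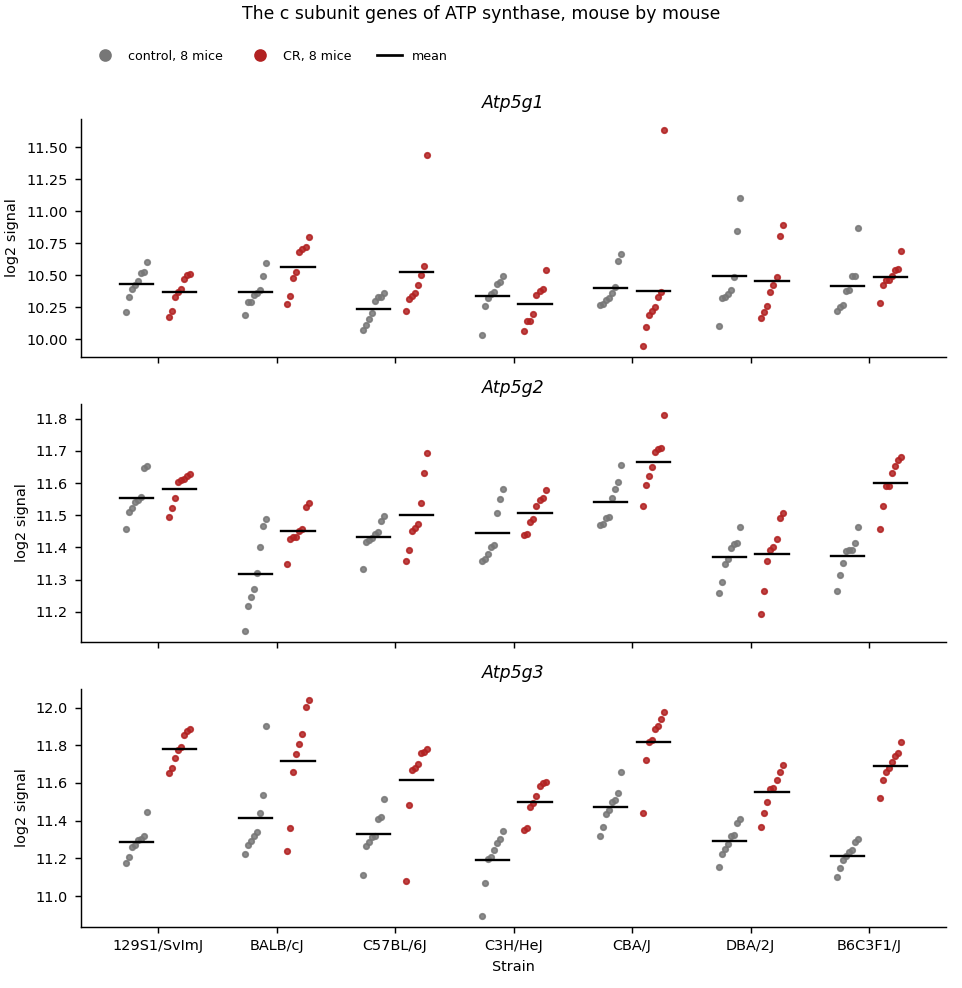
Log2 signal (vertical axis) of the 3 c subunit genes in each mouse, by strain (horizontal axis) and diet, with black bars for group means of 8 mice. Atp5g3 rose in the CR mice of 129S1/SvImJ with no overlap, while the highest Atp5g1 points, 11.44 in C57BL/6J and 11.63 in CBA/J, are the CR arrays highest in epididymis markers.

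In 129S1/SvImJ, Atp5g3 spanned 11.18 to 11.45 in control mice (median 11.28) and 11.66 to 11.89 in CR mice (median 11.78), a difference of 0.50 ± 0.05 with no overlap (adjusted p 9.9e-07). In the same mice Atp5g1 spanned 10.22 to 10.6 in the control group (median 10.44) and 10.17 to 10.51 in the CR group (median 10.38), and the difference of -0.06 ± 0.06 did not pass (adjusted p 0.47). The difference between the CR changes of Atp5g1 and Atp5g3 in this strain was -0.56 (exact two-sided permutation test, p 0.000155, adjusted over 63 pairs by strain 0.00163). Over all strains it was -0.30 between Atp5g1 and Atp5g3 and -0.26 between Atp5g2 and Atp5g3, both at the smallest p that 100000 resamples can give (1e-05, permutation test, adjusted over 9 pairs 1.5e-05). Atp5g2 changed less than Atp5g3 in 7 of 7 strains.

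Atp5g1 was high in the arrays highest in epididymis markers. In C57BL/6J it spanned 10.07 to 10.36 in control mice (median 10.25) and 10.22 to 11.44 in CR mice (median 10.39), with 4 CR mice above every control mouse. The highest CR mouse was replicate 2, the array with the highest epididymis mean of all (10.92), and the difference of 0.29 ± 0.13 was 0.16 ± 0.06 without it (adjusted p 0.15 and 0.078). CBA/J CR replicate 5 read 11.63 where its group otherwise spanned 9.95 to 10.37, and DBA/2J control replicate 4 read 11.1 against 10.11 to 10.84. In these 3 arrays Atp5g3 was below all other mice of its group. Between Atp5g1 and Atp5g2 the mean difference of the CR changes was -0.04 ± 0.05 (SE over 7 strains) over all arrays (permutation test, adjusted p 0.386) and -0.07 without the 8 arrays (adjusted p 0.0229).

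Among the isoforms of complex IV, the measured change of the common form was larger than that of its alternative in most pairs. The CR change of Cox4i1 exceeded that of Cox4i2, the form known from lung and hypoxic cells, by 0.29 ± 0.06 (SE over 7 strains). That of Cox6a1 exceeded that of Cox6a2, the muscle form, by 0.23 ± 0.08, and that of Cox6b1 exceeded that of the testis form Cox6b2 by 0.28 ± 0.08. Cox7a2 exceeded Cox7a2l, which joins complexes III and IV in supercomplexes, by 0.33 ± 0.06. In these 4 pairs the difference was positive in 7 of 7 strains, with the same smallest permutation p (adjusted over 9 pairs 1.5e-05). Cox7b exceeded the testis form Cox7b2 by 0.20 ± 0.07 (permutation test, adjusted p 0.000154), in 6 of 7 strains.

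Cox8a and the testis form Cox8c differed by 0.08 ± 0.06, positive in 4 of 7 strains, which did not pass (permutation test, adjusted p 0.0616). Cox6a2, Cox6b2, Cox7b2 and Cox8c lay below the median gene signal, where a change is harder to see on an array, so a smaller change in these probe sets is not a measure of the transcripts' change. Cox7a2l is brighter, at a mean signal of 8.4, and its across-strain change of 0.02 had a 95% interval from -0.02 to 0.07.

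**Figure D3:**
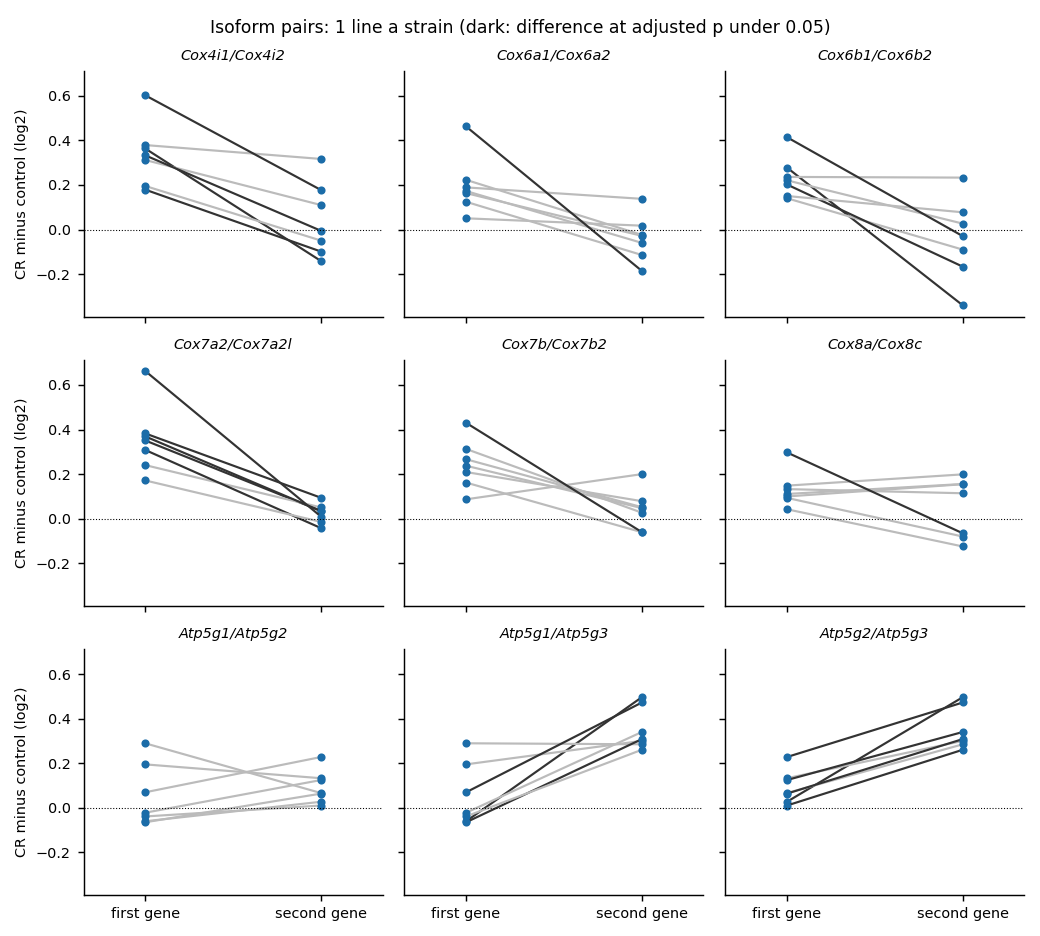
CR minus control (vertical axis, log2) of the first and second gene of 9 isoform pairs, with 1 line for each strain; dark lines are strains in which the 2 changes differed at an adjusted p under 0.05 by exact permutation test. Most lines fall from the common to the alternative form in complex IV, with Cox8a and Cox8c mixed, and most rise towards Atp5g3 in the c ring.

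Within strains 23 of the 63 pair differences passed after adjustment, and B6C3F1/J supplied the largest for Cox7a2 and Cox7a2l. There Cox7a2 spanned 9.45 to 9.75 in control mice (median 9.56) and 10.1 to 10.49 in CR mice (median 10.19), with no overlap (difference 0.66 ± 0.06, adjusted p 2.1e-07). Cox7a2l in the same mice spanned 8.24 to 8.53 in the control group (median 8.36) and 8.17 to 8.55 in the CR group (median 8.4), so the groups lay on top of each other (difference 0.01 ± 0.05, adjusted p 0.91). The changes differed by 0.65 (exact permutation test, p 0.000155, adjusted p 0.00163).

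Cox4i2 was among the genes whose CR effect differed most between strains. In 129S1/SvImJ it spanned 7.63 to 8.05 in control mice (median 7.8) and 7.95 to 8.28 in CR mice (median 8.14), a rise of 0.32 ± 0.06 (adjusted p 0.00062) with 7 CR mice above every control mouse. In C57BL/6J it spanned 7.8 to 8.29 in control mice (median 8.01) and 7.56 to 8.09 in CR mice (median 7.88), and no CR mouse exceeded the highest control mouse (difference -0.14 ± 0.08, adjusted p 0.25). In C57BL/6J the changes of Cox4i1 and Cox4i2 therefore differed by 0.51 (exact permutation test, p 0.000155, adjusted p 0.00163), and in 129S1/SvImJ by 0.06 ± 0.08 (p 0.426).

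In the within-strain fits given here, the members called lower were the muscle and testis forms Cox6a2 and Cox6b2. Cox6b2 fell by 0.34 on the log2 scale in 129S1/SvImJ (SE 0.07, adjusted p 0.0014), where control mice spanned 6.84 to 7.2 (median 7.01) and CR mice 6.56 to 7.07 (median 6.65). It rose by 0.23 ± 0.08 in CBA/J (adjusted p 0.042), a call lost in 10 of the 16 fits that left out a single CBA/J mouse (adjusted p 0.015 to 0.084). Cox6a2 fell by 0.19 in B6C3F1/J (SE 0.06, adjusted p 0.024), from a span of 7.01 to 7.4 (median 7.29) to one of 6.86 to 7.25 (median 7.06). That call was lost after median centring, with quantile normalization, with 1 model for all strains and without CR replicate 4. The filter on dim genes removes Cox6a2 and Cox6b2, so neither was tested under it. All of these signals lie near or below the median gene, and the groups overlapped in each case.

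Strain by strain, the calls ranged from nearly all members to none. B6C3F1/J had 35 members higher and 1 lower against 17.8% of all genes higher and 16.4% lower, and among genes above the median signal 34.5% were higher. CBA/J had 31 higher (8.68%) and 0 lower (12.5%), 129S1/SvImJ 30 higher (16.8%) and 1 lower (15.4%), C3H/HeJ 28 higher (8.75%) and 0 lower (6.87%), and C57BL/6J 21 higher (9.39%) and 0 lower (7.31%), where the percentages are the shares of all genes. DBA/2J had 3 higher, Cox5a, Atp5o and Atp5g3, against 0.492% of all genes higher, and 0 lower (0.396%). Each of those 3 calls was lost in 11 of the 16 fits that left out a single DBA/2J mouse, and after median centring or by the Student t-test 0 were called, while 8 members were called without control replicate 2.

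BALB/cJ had 0 members called by limma, and 0.0% of all genes were called in that strain. At an unadjusted p under 0.05 it had 18 members, all higher, against 4.14% of all genes higher, and at an unadjusted p under 0.01 it had 0 by limma, against 0.622% of all genes higher and 0.958% lower, and 0 by the Student t-test. Without BALB/cJ control replicate 3 there were 17, without CR replicate 6 there were 10 and without CR replicate 4 there were 3. All 36 members outside the tissue isoforms were above 0 in BALB/cJ, and 0 of the 5 tissue isoforms were. Medians were 0.27 for complex III, 0.17 for the 10 complex IV genes and 0.19 for ATP synthase, against -0.016 for all genes. The share of all genes above 0 in BALB/cJ was not counted, and the members were read in the same mice, so their signs are not independent.

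**Figure D4:**
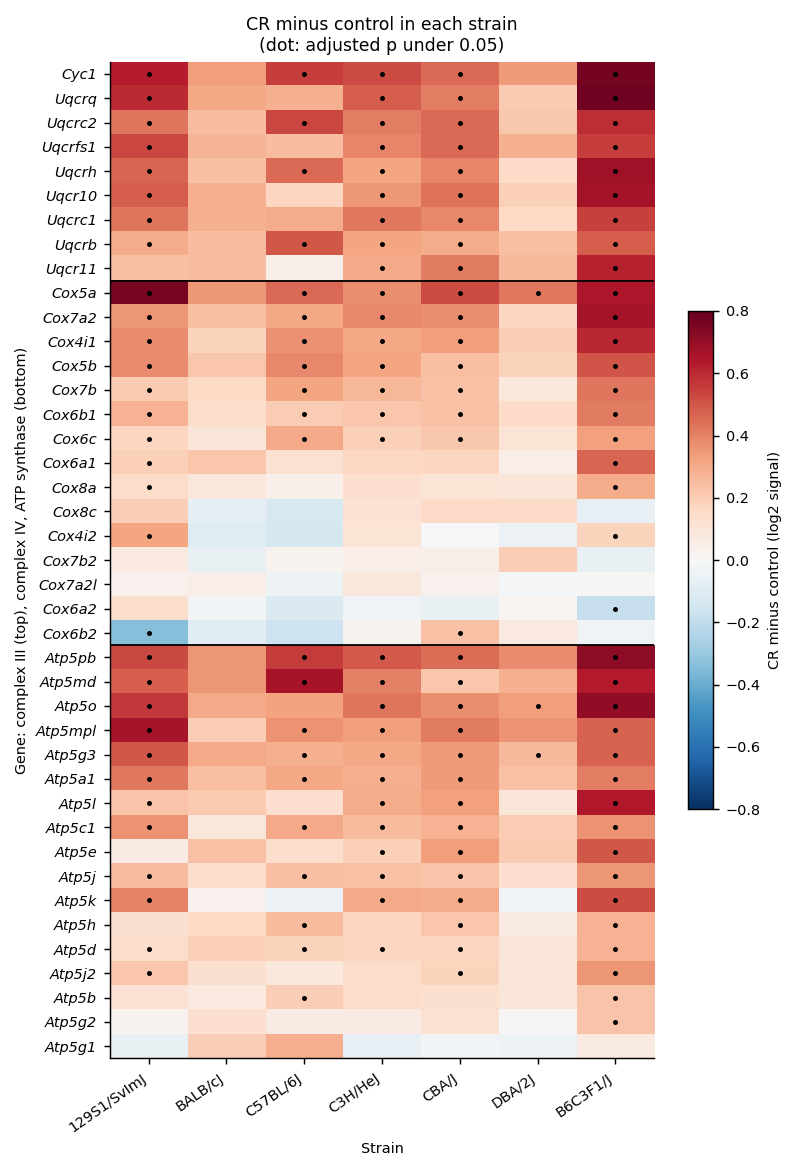
CR minus control (colour, log2) for 41 genes (rows, ordered by complex and by mean change) in 7 strains (columns); dots mark an adjusted p under 0.05 within the strain. B6C3F1/J is the darkest column, with 35 genes higher, and BALB/cJ has no dot. Cox7a2l stays pale and without a dot, while of the tissue isoforms Cox4i2 and Cox6b2 have dots in 2 strains each and Cox6a2 in 1.

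The direction was shared more widely than the calls. A positive difference in all 7 strains was found for 33 of the 41 genes, against 12.7% of all genes, and the 34th gene called across strains, Atp5k, was positive in 5. At an unadjusted p under 0.01 in at least 6 strains there were 9 members, against 2.37% of all genes: Cyc1 from complex III, Cox5a, Cox5b and Cox6b1 from complex IV, and Atp5a1, Atp5g3, Atp5mpl, Atp5o and Atp5pb from ATP synthase. Not one passed in all 7. That count moved with single mice, from 6 without C57BL/6J CR replicate 1 to 14 without BALB/cJ control replicate 3 or DBA/2J control replicate 2.

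Complete separation, with every CR mouse above every control mouse, held for 28 members in B6C3F1/J (6.95% of all genes), 19 in 129S1/SvImJ (3.42%), 5 in C3H/HeJ (1.85%), 2 in C57BL/6J (2.63%), 2 in CBA/J (1.39%), 0 in DBA/2J (0.0702%) and 0 in BALB/cJ (0.00502%). The largest change of a gene fell in B6C3F1/J for 27 members, and the smallest in DBA/2J for 16 and in BALB/cJ for 11. How often these strains held the largest or smallest change over all genes was not counted. B6C3F1/J control mice also had the lowest control mean for 25 of the 41 genes, among them Cyc1 at 10.5 against 11.01 in BALB/cJ, Uqcrh at 10.19 against 10.8 in CBA/J and Atp5md at 9.95 against 10.94 in CBA/J. How often B6C3F1/J had the lowest control mean over all genes was not counted, so this is not shown to be particular to the members. The part of a low control level in a large CR difference was not tested, and the same control mice enter both values.

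Complex against complex, complex III had the highest median change in 7 of 7 strains when all members were counted: 0.61 in B6C3F1/J, where complex IV had 0.33 and ATP synthase 0.41, and 0.22 in DBA/2J, where they had 0.11 and 0.14. With the tissue isoforms set aside, complexes III and IV both had a median of 0.30 in C57BL/6J. No test was made between complexes.

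Taking the mean of the 9 complex III genes in each mouse, B6C3F1/J control mice lay between 9.98 and 10.2 and CR mice between 10.57 and 10.85, with no overlap. The same was true of 129S1/SvImJ, at 10.21 to 10.46 and 10.52 to 10.95. In C57BL/6J, C3H/HeJ and CBA/J 7 of 8 CR mice lay above every control mouse. In BALB/cJ and DBA/2J 0 did, and each of these strains had a control mouse that stood apart at the top.

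BALB/cJ control replicate 3 had a complex III mean of 11.02, above all 8 CR mice, and DBA/2J control replicate 2 had 10.8. Without that mouse 6 of 8 CR mice lay above every other control mouse in either strain, and the CR difference of the complex III mean went from 0.27 to 0.36 in BALB/cJ and from 0.23 to 0.29 in DBA/2J. Both mice were high in the 9 brown and beige adipocyte markers measured (Ucp1, Cidea, Elovl3 and others): the marker mean was 9.0 in the BALB/cJ mouse against 7.29 to 7.68 in the other 7 controls, and 10.26 in the DBA/2J mouse against 7.32 to 8.43. These markers include Cox7a1 and Cox8b, themselves isoforms of complex IV, and over the other 7 markers the means were 8.42 against 6.91 to 7.3 and 9.88 against 6.85 to 8.09. The adipocyte marker mean was 12.63 in the BALB/cJ mouse against 12.64 to 12.78, and 12.69 in the DBA/2J mouse against 12.59 to 12.81. The macrophage marker mean was 8.67 in the BALB/cJ mouse against 8.67 to 9.12, and 9.7 in the DBA/2J mouse against 8.37 to 9.64. Leaving out either mouse kept 34 members called across strains, and the part of the markers in these signals was not tested.

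**Figure D5:**
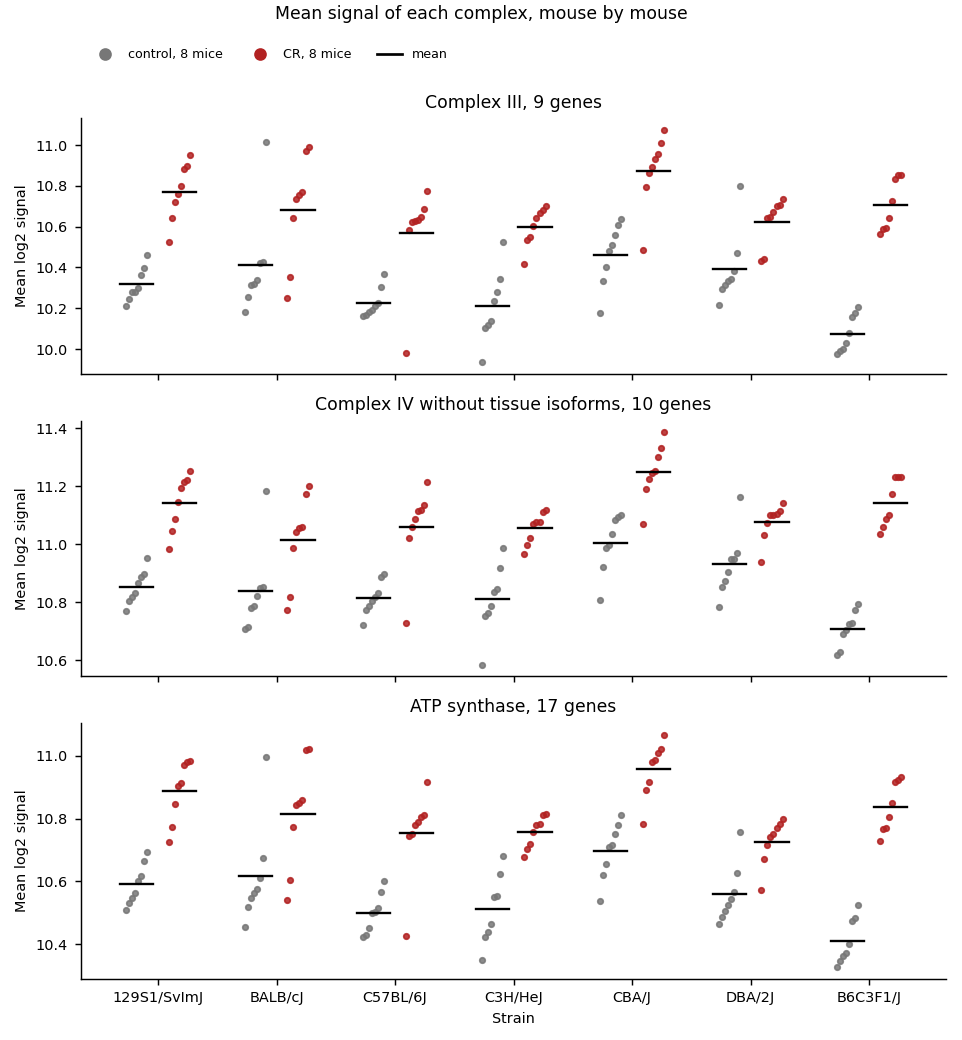
Mean log2 signal (vertical axis) of the members of each complex in every mouse, by strain (horizontal axis) and diet, with group means as black bars; complex IV is shown without its 5 tissue isoforms. Groups separate in 129S1/SvImJ and B6C3F1/J, single control mice stand at the top in BALB/cJ (11.02 in complex III) and DBA/2J, and a single CR mouse at the bottom in C57BL/6J (9.98).

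The CR effect differed between strains for 14 of the 41 genes (limma F-test, adjusted p under 0.05), against 19.0% of all genes, and for 26 with array weights. The 14 were Uqcrh, Uqcr11 and Uqcrq in complex III, Cox4i1, Cox4i2, Cox6a1, Cox6b2, Cox6c, Cox7a2 and Cox8a in complex IV, and Atp5e, Atp5g2, Atp5k and Atp5l in ATP synthase. The smallest p belonged to Atp5k, the e subunit that helps ATP synthase form dimers (adjusted p 0.00015), followed by Cox4i2 (0.00067) and Cox6b2 (0.0016).

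Atp5k spanned 8.17 to 8.59 in B6C3F1/J control mice (median 8.26) and 8.56 to 9.02 in CR mice (median 8.87), a rise of 0.52 ± 0.07 (adjusted p 9.8e-06) with 7 CR mice above every control mouse. In CBA/J it spanned 8.31 to 8.91 in control mice (median 8.72) and 8.59 to 9.13 in CR mice (median 9.07), a rise of 0.30 ± 0.09 (adjusted p 0.025), or 0.36 ± 0.08 without CR replicate 5. In C57BL/6J its difference was -0.05 ± 0.11 and in DBA/2J -0.02 ± 0.09, and neither passed (adjusted p 0.8 and 0.95).

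Set against the mean of the other 6 strains, the BALB/cJ effect was smaller for 35 of the 41 genes. The median difference of effects was -0.10 for the 41 genes and -0.024 for all genes. The share of all genes with a smaller effect was not counted. In limma 0 passed, against 3.25% of all genes, and 7 were smaller at an unadjusted p under 0.05, against 5.59% of all genes. BALB/cJ control replicate 3, which stood apart, enters this contrast, and without it 0 passed as well. The smallest p were those of Atp5c1 (difference of effects -0.20 ± 0.07, adjusted p 0.12), Atp5mpl (-0.23 ± 0.1, adjusted p 0.24) and Cox4i1 (-0.19 ± 0.08, adjusted p 0.25).

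Genes that build these complexes moved with their subunits in most cases. Over all genes 21.9% were called higher across strains and 22.0% lower. All 7 complex III assembly genes rose, led by Bcs1l, which inserts the Rieske subunit, at 0.48, with Uqcc2 at 0.37 and Lyrm7 at 0.34. Of 22 complex IV assembly genes 16 rose and 0 fell, among them Cox18 at 0.25, Cox20 at 0.38 and Lrpprc, which stabilizes mitochondrial mRNA, at 0.32. The copper chaperone Cox17 at 0.01 and Surf1 at 0.03 were among the 6 that did not pass (adjusted p 0.83 and 0.13; both were chosen after their values were seen). Of 4 genes for ATP synthase assembly and control, Tmem70 rose by 0.34, Atpaf2 by 0.33 and Atpaf1 by 0.19, while Atpif1, the protein that inhibits ATP hydrolysis by the synthase, fell by 0.19 (SE 0.04, adjusted p 2.9e-06) and was negative in 7 of 7 strains. The median of all 4 was 0.26, that of complex III assembly 0.25 and that of complex IV assembly 0.24, against 0.008 for all genes.

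Cycs, the somatic cytochrome c that shuttles between complexes III and IV, rose by 0.36, and the testis form Cyct did not pass at 0.04 (adjusted p 0.25). Of 6 subunits encoded in mitochondrial DNA only 1, the COX2 subunit of complex IV, was measured, and its change of 0.05 ± 0.02 did not pass across strains (adjusted p 0.087), though it rose by 0.21 ± 0.06 in B6C3F1/J (adjusted p 0.01). Of 13 regulators of respiratory genes 8 rose and 2 fell, against 21.9% of all genes called higher and 22.0% lower. Esrra, an estrogen-related receptor, rose by 0.25, Polrmt by 0.19 and Tfb2m by 0.33, both of which serve transcription of mitochondrial DNA. Ppargc1a, the coactivator of mitochondrial biogenesis, rose by 0.38 ± 0.06 across strains (adjusted p 1.2e-08), with 0.65 ± 0.07 in CBA/J and -0.03 ± 0.22 in DBA/2J. Pprc1, a relative of Ppargc1a, fell by 0.28 and Yy1 fell by 0.07.

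Markers of cell types were counted beside all genes, of which 21.9% were called higher and 22.0% lower across strains. The epididymis and skeletal muscle counts below were near or under those shares. Of 14 macrophage markers 13 fell, with group means of 8.86 to 10.4 in the control groups and 8.36 to 8.99 in the CR groups. Of 9 brown and beige adipocyte markers 6 rose and 1 fell, with group means of 6.76 to 8.11 in control and 7.17 to 8.61 in CR. Those that rose include Cox7a1 (0.75) and Cox8b (0.71), themselves isoforms of complex IV. Of 11 adipocyte markers 2 rose and 4 fell, with group means of 12.71 to 12.85 in control and 12.58 to 12.79 in CR, so the labelled tissue carried its defining markers at high signals in all 14 groups. Of 12 skeletal muscle markers 0 rose and 1 fell, of 16 epididymis markers 4 rose, and of 11 testis germ cell markers 6 rose, with group means of 5.54 to 5.8 in control and 5.54 to 6.48 in CR. The part of any of these in the changes of the subunit genes was not tested.

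Of the 12 members with several probe sets, all sets agreed in direction, and the across-strain change differed by at most 0.054 between sets except in Atp5pb, where it was 0.38 for the lower set and 0.49 for the brighter. Subunit genes of this kind have pseudogene copies, and whether probes also read such copies was not tested.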

How the data were processed

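Total RNA of epididymal WAT was hybridized to 1 array per mouse, 112 in all, in 14 groups of 8. The authors computed the deposited log2 signals with RMA in Affymetrix Expression Console, according to the submitters' processing notes, whose versions are not given in the sources used here. No pooling was stated, and no scan or extraction batch was named. Of 35556 probe sets 21789 carried a single symbol in the platform annotation, 1621 several and 12146 none. The brightest single-symbol probe set stood for each of 19938 genes.

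Groups came from the labels. limma 3.58.1 (R 4.3.3) was fitted to all genes with Benjamini-Hochberg adjustment: over all 112 arrays for the mean CR effect, the F-test between strains and BALB/cJ against the other strains, and over the 16 arrays of a strain for each within-strain effect. Isoform pairs were compared mouse by mouse, CR against control, by exact permutation within strains (12870 splits) and by 100000 resamples over strains, two-sided. Complexes were compared by counts and medians only. The 95% intervals are the estimate ± 1.98 standard errors. The fits were tested on simulated data. Members, gene lists and tests were chosen with earlier results of these data known. Any member could be named. Those described mouse by mouse came from the 4 smallest across-strain p in each complex, the isoform pairs, and the 3 smallest p of the F-test and of the BALB/cJ contrast; pathway genes came from the 3 smallest p per list and direction, and Ppargc1a. The strains shown for a gene were picked after the values were seen.

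Alternatives were median centring, quantile normalization, a filter on dim genes, the mean of all probe sets, trended and robust variances, array weights, the replicate number as a block, 1 model for all strains, the Student t-test on raw signals named in the study's methods, and leaving out BALB/cJ, arrays high in epididymis markers, and each array in turn. The number of arrays limits the precision. Promoters came from RefSeq (GRCm38.p6) and matched 30 of 41 members.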

Additional observations from a re-analysis of the deposited data

Results flagged for a closer look

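In the means of complexes III, IV and V by group, 8 of 42 groups had a mouse far from the others of its group (Dixon's test at the 95% level), where chance gives about 1 in 20. The 42 are not independent, because the complexes were read in the same mice. C57BL/6J CR replicate 2 and BALB/cJ control replicate 3 were each counted for several complexes. BALB/cJ control replicate 3 was highest in complex III (11.02) and in ATP synthase (11.0), and DBA/2J control replicate 2 was highest in complex III (10.8). C57BL/6J CR replicate 2 was lowest in complex III (9.98), complex IV (9.3) and ATP synthase (10.43), and CBA/J CR replicate 5 was lowest in complex IV (9.51). These last arrays had the highest epididymis marker means, 10.92 and 10.74, with adipocyte marker means of 11.68 and 12.2 against 12.67 to 12.8 and 12.58 to 12.69 in the other mice of their groups. C3H/HeJ control replicate 3 was lowest in complex IV (9.23), and its macrophage marker mean of 10.77 was above the 9.31 to 10.31 of the other 7 controls. Its adipocyte mean of 12.67 was below their 12.79 to 12.88. Its brown and beige mean of 7.29 was below their 7.35 to 8.08. Without the complex IV isoforms Cox7a1 and Cox8b that mean was 6.93, inside their 6.87 to 7.71. The part of these markers in the subunit signals was not tested.

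Of the 46 gene groups given mouse by mouse, 8 held such a mouse. The same arrays gave the highest Cyc1 in BALB/cJ control mice (11.68), the highest Cox5a in DBA/2J control mice (9.98), the lowest Cox4i1 and the highest Atp5g1 in C57BL/6J CR mice (9.89 and 11.44), and the lowest Atp5a1 and Atp5k in CBA/J CR mice (11.32 and 8.59). The others were the highest Cox6b2 in 129S1/SvImJ CR mice (7.07, replicate 8) and the highest Atp5k in B6C3F1/J control mice (8.59, replicate 6). Each within-strain difference kept its direction without the mouse in question.

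The CR effect differed between strains, by the limma F-test, in 14 genes. The distance from the lowest to the highest strain effect was 0.57 for Atp5k, Cox6b2 and Uqcrq, 0.56 for Uqcr11, 0.54 for Atp5l, 0.53 for Uqcrh, 0.49 for Cox7a2, 0.46 for Cox4i2, 0.43 for Atp5e, 0.42 for Cox4i1, 0.41 for Cox6a1, 0.26 for Cox8a, 0.23 for Cox6c and 0.22 for Atp5g2 on the log2 scale. The 3 probe sets shared by Cox7c and Gm12338, outside the comparisons, gave mean CR differences of 0.188, 0.174 and 0.186, positive in 7 of 7 strains, and which transcript they read was not tested.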

How the results depend on the processing

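Across strains the 34 members called in the report, 9, 9 and 16 by complex, stayed called under every alternative that was fitted across strains. These included leaving out BALB/cJ control replicate 3 or DBA/2J control replicate 2, chosen after seeing the data. The Student t-test, 1 model for all strains and the other runs without a single array were made within strains only. Of the other members, Cox4i2 passed in addition with array weights (0.05, adjusted p 0.036) and without BALB/cJ (0.07, adjusted p 0.049). Cox7a2l changed sign with array weights (-0.001). Members whose CR effect differed between strains numbered 26 with array weights and 9 with the replicate block, against 14. The BALB/cJ contrast gave 1 with quantile normalization, with array weights and without the arrays high in epididymis markers, against 0. Within BALB/cJ 1 model for all strains called 3, against 0. At p under 0.01 BALB/cJ had 1 after centring, with the dim-gene filter or with trended variances, 21 with array weights, 10 with the block and 20 with 1 model, and 0 to 17 on leaving out an array, 17 without control replicate 3 and 10 without CR replicate 6. DBA/2J calls, 3 in the report, were 0 after centring, with the block or by the Student t-test, 5 with quantile normalization or trended variances, 7 with the dim-gene filter or 1 model, 20 with array weights, and 0 to 8 on leaving out an array (8 without control replicate 2). At p under 0.01 DBA/2J had 24 with array weights, against 10, and 8 to 19 on leaving out an array (19 without control replicate 2). Members at p under 0.01 in at least 6 strains were 24 with array weights and 17 with 1 model, against 9, and 6 to 14 on leaving out an array. Without the arrays high in epididymis markers Atp5g1 and Atp5g2 differed at -0.0726, and Cox6b2 in C57BL/6J and Atp5g1 in CBA/J were called lower. The causes were not tested. The replicate numbers did not pair the mice: the correlation of same-numbered mice ran from -0.363 to 0.55 and exceeded 0.1 in 1 to 5 of 8 pairs by strain (5 in C3H/HeJ, 4 in BALB/cJ), and the block changed no other count by more than 1.5 times. Dim isoforms are limited by signal over background.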
